A study of Mus musculus with 18 samples.

Results

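The genes described here are 40 mouse genes of the integrated stress response and the unfolded protein response, taken from a fixed list of gene symbols and looked up in every deposited table. All 40 were found among 35551 gene IDs, and all 40 exceeded the filter on low signal, with 281.7 as the lowest value of any of them in any library. By role they comprise 10 regulators of the ATF4 arm, 6 enzymes of amino acid and one-carbon metabolism, 3 amino acid transporters, 4 genes for endoplasmic reticulum (ER) stress sensors and Xbp1, 13 ER chaperones and folding factors, and 4 genes of ER-associated degradation. The cells were AML12, an established mouse hepatocyte line, synchronized before treatment and given either pemafibrate, a selective agonist of the nuclear receptor PPARα, or its solvent DMSO, at a dose that the labels do not give. Exposure ran from T0 to T24 (24 h, harvest at T24), from T14 to T20 (6 h, harvest at T20) or from T24 to T30 (6 h, harvest at T30), and the design text describes the 2 short windows as standing for day and night exposure. Each of the 6 groups had 3 libraries, numbered 1 to 3 in the titles, which gave 18 libraries and 9 pairs of pemafibrate and DMSO libraries of the same window and number. All groups share 1 cell line, and the labels leave unsaid whether the 3 numbers are separate cultures. A p-value here therefore covers the scatter among these libraries alone, and that scatter may be technical.

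In the integrated stress response, kinases that sense amino acid shortage, ER stress, haem shortage or viral RNA phosphorylate the initiation factor eIF2α, which slows general translation and favours translation of the transcription factor ATF4. ATF4 then induces genes of amino acid synthesis and import, of redox balance and, under lasting stress, of cell death through CHOP, the product of Ddit3. The unfolded protein response shares the kinase PERK with it and adds the sensors IRE1 and ATF6, which through spliced XBP1 and cleaved ATF6 induce ER chaperones and degradation factors. Hepatocytes secrete much protein and depend on this system for ER capacity.

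Values are normalized signal per gene as the authors deposited it, in 1 table per window. The tables were normalized separately, so pemafibrate was tested within tables, and levels set across tables are descriptions. Tests used log2(signal + 1) and limma, with p-values adjusted by Benjamini-Hochberg over all tested genes and a threshold of 0.05. Library totals ran from 31461977 to 33884634 signal units, and no pair of libraries held identical values. The cells carried hepatocyte transcripts, with 8 of 9 markers at a mean of 10 or more, among them Alb, Apob and Hnf4a. Apoa1 averaged 8.3. They also carried 4 of 5 cholangiocyte markers, with Epcam at 3.0, and 3 of 5 macrophage and leukocyte markers: Csf1r averaged 198.7, Cd68 44.1 and Ptprc 40.6, while Adgre1 and Clec4f were at 0.0 in every library.

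Promoters of many ER chaperone genes are known to carry the ER stress response element, written as CCAAT, any 9 bases, then CCACG. It is shown because 7 of the 11 chaperone and folding genes with a promoter entry held it. Since the element is already known from such genes, a list rich in chaperones would hold it often. The shares below are therefore a description and not independent evidence. In RefSeq promoters of GRCm38.p6, from 250 bases before to 50 bases after the gene start, 36 of the 40 genes had an entry (Slc7a5, Atf6, Manf and Hyou1 had none). On either strand, the element was found in 8 of these 36 genes (22.2%) and in 37 of 27025 genes in the table (0.137%). The genes were Hspa5, Hsp90b1 with 2 copies, Calr, Canx, Pdia6, Dnajc3 and Creld2, all chaperones or folding factors, and Syvn1, the ubiquitin ligase of ER-associated degradation. The stretches below run 5′ to 3′ on each gene's own strand, with 20 bases on either side of the element, and capitals mark the element's 2 fixed parts; CGTGG followed by ATTGG is the same element on the other strand.
Hspa5 (chr2:34772005-34772063, plus strand): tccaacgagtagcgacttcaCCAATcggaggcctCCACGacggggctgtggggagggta
Hsp90b1, farther copy (chr10:86705618-86705676, minus strand): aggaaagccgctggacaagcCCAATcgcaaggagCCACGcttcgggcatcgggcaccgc
Hsp90b1, nearer copy (chr10:86705513-86705571, minus strand): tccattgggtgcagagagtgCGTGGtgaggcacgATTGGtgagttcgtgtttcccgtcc
Calr (chr8:84847055-84847113, minus strand): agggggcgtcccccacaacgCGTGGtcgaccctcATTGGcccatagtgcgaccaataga
Canx (chr11:50325780-50325838, minus strand): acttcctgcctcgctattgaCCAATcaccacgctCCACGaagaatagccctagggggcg
Pdia6 (chr12:17266471-17266529, plus strand): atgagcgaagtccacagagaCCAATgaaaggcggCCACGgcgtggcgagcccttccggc
Dnajc3 (chr14:118937807-118937865, plus strand): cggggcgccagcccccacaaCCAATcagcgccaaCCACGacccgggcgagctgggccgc
Creld2 (chr15:88819500-88819558, plus strand): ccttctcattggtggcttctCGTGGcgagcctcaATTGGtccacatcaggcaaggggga
Syvn1 (chr19:6046512-6046570, plus strand): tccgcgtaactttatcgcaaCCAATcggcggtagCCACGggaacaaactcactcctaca
In Hspa5 the element spans bases 65 to 47 before the start, in Dnajc3 bases 105 to 87, and in Syvn1 bases 44 to 26. The ATF4 sites TGATGCAAT and TGATGNAAT, searched on both strands (every TGATGCAAT is also a TGATGNAAT), matched 0 of the 36 genes, against 0.222% and 1.08% of all genes. The ATF6 site TGACGTGG also matched 0 of the 36 genes, against 0.714% of all genes. A match is a string of letters and not a measured binding site, and a missing match says only that these letters are not in this window.

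No stress gene differed past the threshold between pemafibrate and DMSO cells in any of the 3 windows, and the fitted log2 fold changes within windows lay between -0.21 (Chac1) and 0.12 (Sel1l). Known PPARα targets did differ in the same libraries: with a single effect fitted over the 9 pairs, limma called 25 of 13258 genes, among them Pdk4, a kinase that restrains glucose oxidation, at a log2 fold change of 1.17 ± 0.11 (SE), Angptl4 at 0.57 ± 0.03 and Cpt1a at 0.31 ± 0.02 (adjusted p of 6.7e-05, 1.4e-06 and 3.5e-06, genes chosen after their values were seen). None of the 40 stress genes was among them: 0 of 40 passed in this common fit, where 0.189% of all genes did. Within windows 0 of 40 passed as well, against 0.0525% of all genes in T0 to T24, 0.0379% in T14 to T20 and 0.0378% in T24 to T30. The smallest limma adjusted p of any of the 40 was 0.411 in the common fit and 0.865 in the T0 to T24 window, 0.561 in T14 to T20 and 0.615 in T24 to T30. Without adjustment, p was under 0.05 for 7 of 40 in the common fit (6 lower and 1 higher), against 6.45% of all genes (3.02% lower and 3.42% higher), and for 1, 2 and 6 of 40 within these windows in the same order, against 5.17%, 8.14% and 7.51%.

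The common fit bounded the effects narrowly. Log2 fold changes of the 40 genes lay between -0.11 and 0.08, with a median of -0.01, beside -0.002 over all genes. Every 95% interval lay inside ±0.25, and 28 of 40 lay inside ±0.1, as did 38.2% of all genes. The outermost bounds were -0.21 for Atf3 and 0.14 for Ern1. The common fit treats pairs of the same number in different windows as independent.

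**Figure D1:**
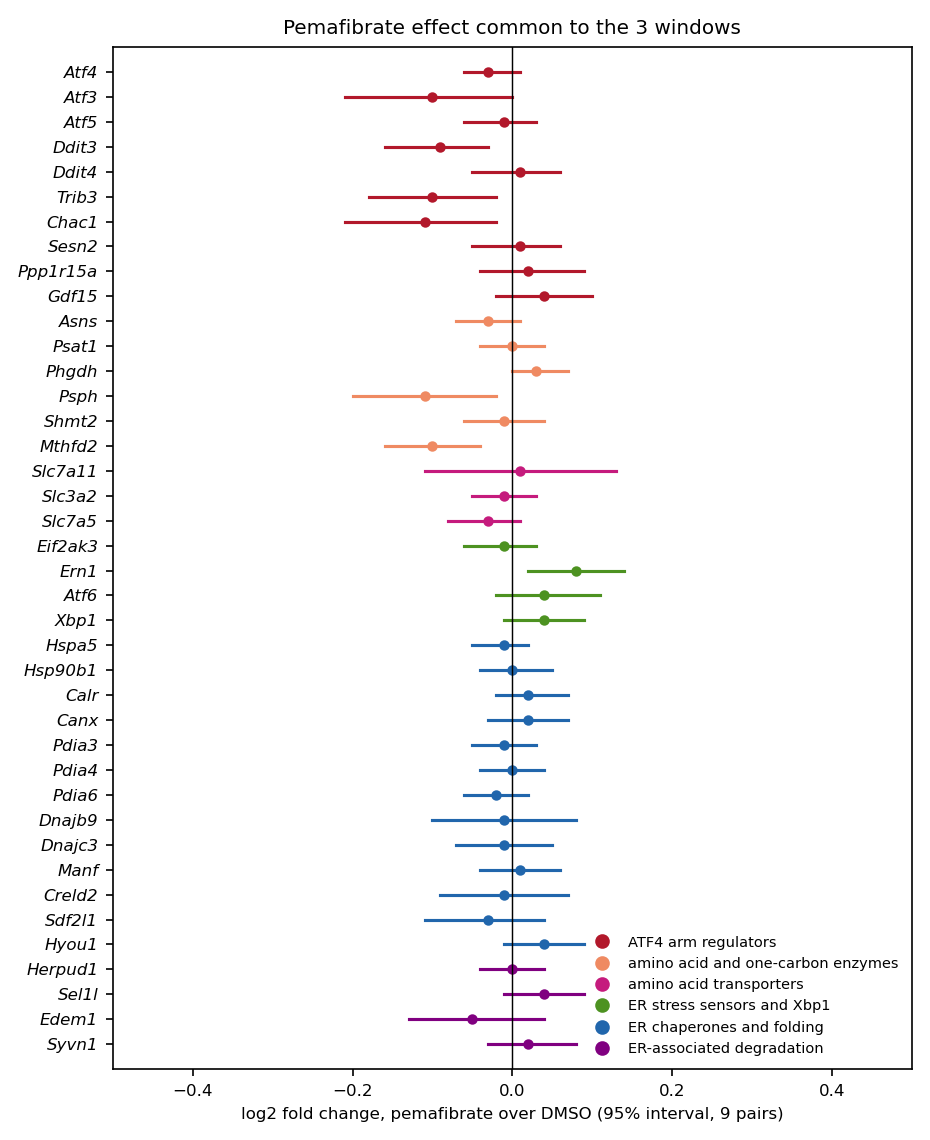
Log2 fold change of each stress gene, pemafibrate over DMSO, from the fit common to the 3 windows, with its 95% interval over 9 pairs; genes run down the page by role and colour. All points lie between -0.11 and 0.08, and the 7 intervals that leave out 0 are those of Atf3, Ddit3, Trib3, Chac1, Psph and Mthfd2 on the lower side and Ern1 on the higher side.

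Among the regulators of the ATF4 arm, Ddit3, which encodes the transcription factor CHOP, had the most uniform direction. In the T0 to T24 window its signal was 681, 719.6 and 780.3 in pemafibrate cells, against 755, 819.6 and 787 in DMSO cells, in the order of numbers 3, 2 and 1, which is used for all such values below. In T14 to T20 it was 796, 789.5 and 891 in pemafibrate cells, against 899, 821 and 939 in DMSO cells. In T24 to T30 it was 879, 816 and 819 in pemafibrate cells, against 933, 862 and 836 in DMSO cells. The pemafibrate library was the lower one in 9 of 9 pairs, a pattern that 0.30% of all genes showed, although the ranges of both treatments overlapped in every window. The common log2 fold change was -0.09 ± 0.03 (SE), with a limma p of 0.00603 and an adjusted p of 0.510.

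Atf4 itself, the master regulator of this arm, stood at -0.03 ± 0.02 (adjusted p = 0.875 by limma, lower in 6 of 9 pairs). Its signal in T24 to T30 was 9269, 7888 and 9420.2 in pemafibrate cells, against 9838, 7829.5 and 9909 in DMSO cells. Number 2 was low under either treatment, as in the other windows. Trib3, a pseudokinase that restrains ATF4 and CHOP, was at -0.10 ± 0.04 and lower in 7 of 9 pairs (limma adjusted p = 0.629). Trib3 read 689, 531 and 582 in pemafibrate cells, against 784, 517 and 658 in DMSO cells in T0 to T24, with number 2 the exception. Chac1, a glutathione-degrading enzyme downstream of CHOP, was at -0.11 ± 0.04 and lower in 8 of 9 pairs (adjusted p = 0.70). In T24 to T30 Chac1 signal was 386, 287 and 352 in pemafibrate cells, against 447, 334 and 407 in DMSO cells, a log2 fold change of -0.21 ± 0.07 with an adjusted p of 0.657. Its pemafibrate values lay below the DMSO value of the same number in all 3 pairs, but the groups overlapped because number 2 was low under either treatment. Atf3, a stress-induced transcription factor, was at -0.10 ± 0.05 (adjusted p = 0.767) and was lower in 7 of 9 pairs. In the T0 to T24 window Atf3 read 621, 499 and 687 in pemafibrate cells, against 762, 527 and 708 in DMSO cells. In the T14 to T20 window it read 523, 603 and 717 in pemafibrate cells, against 638, 752 and 683 in DMSO cells. Its differences were thus uneven, with numbers 3 and 2 apart and number 1 slightly higher under pemafibrate in T14 to T20. The remaining 5 regulators had common log2 fold changes between -0.01 and 0.04: Atf5, a transcription factor related to ATF4; Ddit4 and Sesn2, which restrain mTORC1; Ppp1r15a, the phosphatase subunit that reverses eIF2α phosphorylation; and Gdf15, a secreted stress hormone.

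The amino acid enzymes held the gene with the smallest p of the 40. Mthfd2, a mitochondrial folate enzyme of one-carbon metabolism, had signal of 2863, 1702 and 2089 in pemafibrate cells, against 2838, 2055 and 2127 in DMSO cells in the T0 to T24 window. In T14 to T20 it had 2612, 1509 and 2176 in pemafibrate cells, against 2802, 1586 and 2319 in DMSO cells. In T24 to T30 it had 2497, 1667 and 2097 in pemafibrate cells, against 2721, 1741 and 2365 in DMSO cells. The pemafibrate library was lower in 8 of 9 pairs, and number 3 in T0 to T24 was the exception, yet the ranges of both treatments overlapped in every window with wider gaps between numbers than between treatments. The common log2 fold change was -0.10 ± 0.03, with a limma p of 0.00299 and an adjusted p of 0.411. Psph, the last enzyme of serine synthesis, was at -0.11 ± 0.04 (adjusted p = 0.646, lower in 7 of 9 pairs). Phgdh, the first enzyme of that pathway, was at 0.03 ± 0.02 (adjusted p = 0.813, higher in 8 of 9 pairs), and Psat1, the enzyme between them, at 0.00 ± 0.02. Asns, which makes asparagine, was at -0.03 ± 0.02, and Shmt2, the mitochondrial enzyme that splits serine, at -0.01 ± 0.02. The transporters were near 0 too: the cystine transporter Slc7a11 stood at 0.01 ± 0.06, its partner chain Slc3a2 at -0.01 ± 0.02 and the leucine transporter Slc7a5 at -0.03 ± 0.02.

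Of the sensors, Ern1, which encodes IRE1α, leaned the other way. Its signal in the T0 to T24 window was 1639, 1614 and 2002 in pemafibrate cells, against 1604, 1380.4 and 1929 in DMSO cells. In T14 to T20 it was 1572, 1456 and 1833 in pemafibrate cells, against 1529, 1422 and 1859 in DMSO cells. In T24 to T30 it was 1599, 1346 and 1810.0 in pemafibrate cells, against 1454, 1262 and 1680.5 in DMSO cells. It was higher with pemafibrate in all pairs but that of number 1 in T14 to T20, and the ranges of both treatments overlapped in every window, with number 1 high under either treatment. The common log2 fold change was 0.08 ± 0.03, with a limma p of 0.0121 and an adjusted p of 0.629. Atf6, the sensor that is cleaved in the Golgi, was at 0.04 ± 0.03, Xbp1, the transcription factor whose RNA IRE1 splices, at 0.04 ± 0.02, and Eif2ak3, which encodes PERK, at -0.01 ± 0.02. Xbp1 signal in T24 to T30 was 3748, 3796 and 4191 in pemafibrate cells, against 3468, 3636 and 3915 in DMSO cells, higher in each pair with overlapping ranges, and gene-level signal does not separate spliced from unspliced Xbp1. Within T14 to T20 Atf6 read 2884, 2772 and 3153 in pemafibrate cells, against 2731, 2467 and 3002 in DMSO cells, higher in 3 of 3 pairs at 0.11 ± 0.04 (limma adjusted p = 0.561).

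The 13 chaperones and folding factors had common log2 fold changes between -0.03 and 0.04, a median of -0.01, and no p under 0.05 (the smallest was 0.112, for Hyou1). Hspa5, which encodes the central ER chaperone BiP, was at -0.01 ± 0.02. Its signal in T24 to T30 was 27562, 24345 and 29709.6 in pemafibrate cells, against 28414, 24748 and 31922 in DMSO cells, each pemafibrate value slightly below its DMSO partner, while in the other windows the pairs went either way. Hyou1, a large ER chaperone of the heat shock protein 70 family, had the smallest p of that window at 0.0129 (log2 fold change 0.11 ± 0.03, limma adjusted p = 0.615). Its signal there was 6959.7, 6202 and 6363 in pemafibrate cells, against 6295, 5806 and 5959.6 in DMSO cells. All 3 pairs were higher with pemafibrate, and 1 of the 3 pemafibrate values, that of number 2, lay inside the DMSO range. Of the degradation genes, Sel1l, the adaptor of the ubiquitin ligase, had the smallest p of T0 to T24, at 0.0166 (log2 fold change 0.12 ± 0.04, limma adjusted p = 0.865). Its signal was 3214, 2961 and 2927 in pemafibrate cells, against 2894, 2754 and 2702 in DMSO cells, and the groups did not overlap, yet in the other windows the pairs went either way. Edem1, a lectin that hands misfolded glycoproteins to disposal, was at -0.15 ± 0.04 in T24 to T30 (adjusted p = 0.615), with 2762, 2515 and 3138 in pemafibrate cells, against 3247, 2758 and 3304 in DMSO cells, lower in each pair with overlapping ranges. Herpud1 stood at 0.00 ± 0.02 and Syvn1 at 0.02 ± 0.03 in the common fit.

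**Figure D2:**
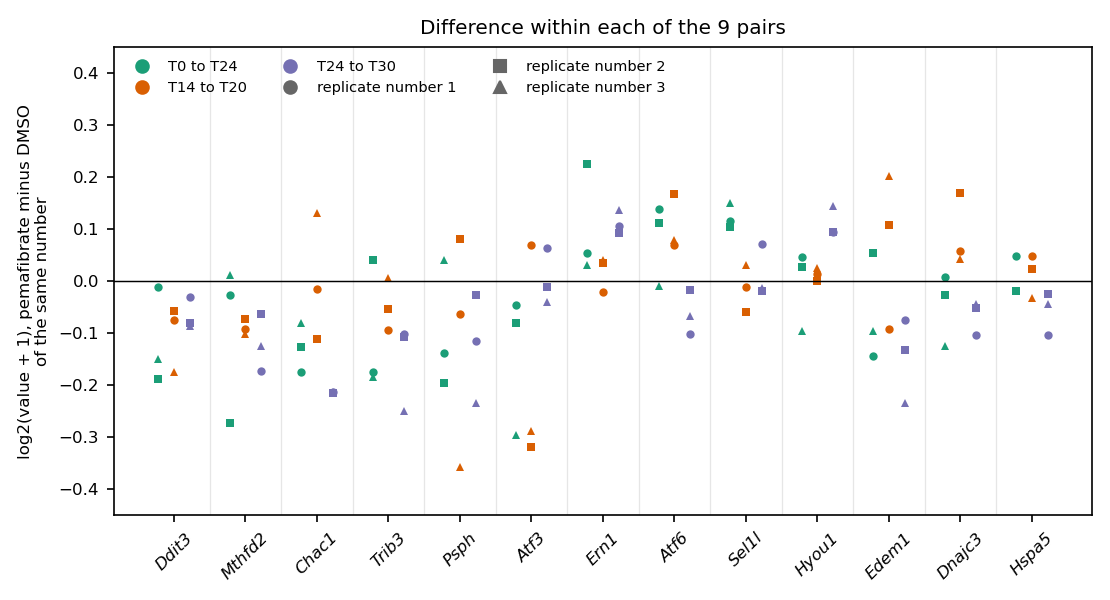
Difference in log2(signal + 1), pemafibrate minus DMSO, within each of the 9 pairs for the genes with the smallest p and for Hspa5; colour gives the window and shape the replicate number. All 9 points of Ddit3 lie below 0, while those of Edem1 and Dnajc3 lie on either side of 0.

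The design asks whether the effect of pemafibrate depends on the window, and no stress gene passed the test of a difference between windows. The test called 0 of 40 stress genes and 0% of 13258 genes for each of the 3 differences, which share windows and so are not independent. Without adjustment, p was under 0.05 for 5 of 40 genes in T14 to T20 minus T24 to T30, against 9.24% of all genes (1225 of them). The counts were 2 of 40 in T0 to T24 minus T14 to T20, against 4.93%, and 4 of 40 in T0 to T24 minus T24 to T30, against 7.97%. The smallest adjusted p was that of Atf6 in T14 to T20 minus T24 to T30, with a difference of 0.17 (95% interval 0.05 to 0.29, limma adjusted p = 0.421). Edem1 differed there by 0.22 (0.04 to 0.40, adjusted p = 0.464) and Dnajc3, a co-chaperone that also inhibits PERK, by 0.16 (0.04 to 0.28, adjusted p = 0.449). Dnajc3 signal was 2944, 2655 and 2872 in pemafibrate cells, against 2858, 2361 and 2758 in DMSO cells in T14 to T20. In T24 to T30 it was 2881, 2574 and 2949 in pemafibrate cells, against 2969, 2669 and 3169.8 in DMSO cells. The pemafibrate library was thus the higher one of each pair in T14 to T20 and the lower one of each pair in T24 to T30, with overlapping ranges. Calr and Hyou1 differed by -0.11 and -0.12 in T0 to T24 minus T24 to T30 (limma adjusted p = 0.60 for either).

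The neighbouring genes of the 2 pathways, 129 genes in 8 lists, were likewise without a call. In the common fit 0 of 24 tested further ATF4 pathway genes, 0 of 9 eIF2α kinase and phosphatase genes, 0 of 19 cytosolic aminoacyl-tRNA synthetases, 0 of 30 ER folding and import genes, 0 of 14 degradation genes, 0 of 9 sensors and ER-anchored transcription factors, 0 of 10 mitochondrial folding genes and 0 of 12 cytosolic heat shock genes passed in either direction. List medians lay between -0.02 and 0.01, beside -0.002 for all genes. Cth, which makes cysteine from cystathionine, came closest at -0.18 ± 0.04, with a limma p of 0.00142 and an adjusted p of 0.293. An ER-anchored transcription factor outside the lists, Creb3l3, was among the 25 called genes at 1.26 ± 0.11 (adjusted p = 3.4e-05, named after its value was seen).

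Differences between replicate numbers were much wider than those between treatments. Over the 3 numbers, the range of a gene's mean level exceeded the size of its common pemafibrate effect in 39 of 40 stress genes, as it did in 96.7% of all genes. The measures are unlike, since a range over 3 means tends to exceed the size of 1 difference even without an effect. Number 3 had the highest level of amino acid enzymes and transporters (number 3 was highest in 34.4% of all genes). Number 2 had the lowest level of 7 of 10 ATF4 arm regulators (lowest in 30.6% of all genes). Number 1 had the lowest level of the protein disulphide isomerases and of Calr (lowest in 34.2% of all genes). These contrasts were tested with limma over all 18 libraries with the 6 groups in the model, and 6 libraries carry each number. Libraries of a number share whatever that number stands for, so the p-values cover the spread between windows and treatments and say nothing of new cultures.

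In number 3 against number 1, 27 of 40 stress genes differed (22 higher and 5 lower), against 51.6% of all genes (26.7% higher and 24.8% lower). In number 3 against number 2, 27 of 40 differed (23 higher and 4 lower), against 44% of all genes (22.5% and 21.5%). With libraries rescaled to equal upper quartiles, that split became 22 higher and 8 lower. The background moved too: 45% of all genes were then called, of which 41.8% were higher, against 51.1% of calls before rescaling. In number 3 against number 1 the same rescaling gave 19 higher and 6 lower. There 51.4% of all genes were called, of which 43.9% were higher, against 51.9% of calls before. In number 2 against number 1, 25 of 40 differed (9 higher and 16 lower), against 45.2% of all genes (22.7% and 22.4%). These 3 contrasts share libraries and are not independent. Most differences were small: at least a 2-fold difference was called for 0, 0 and 1 of 40 genes in these contrasts, against 2.4%, 1.37% and 1.49% of all genes.

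The order of the numbers was also uneven. Number 3 was highest, then 1, then 2 in 20 of 40 stress genes, an order held by 16.0% of all genes. Number 3 was highest in 26 of 40 (34.4% of all genes), and number 2 lowest in 24 of 40 (30.6%). Summed marker signal also differed by number. That of the hepatocyte markers was 158875 to 180652 in number 3, 128508 to 146252 in number 2 and 159492 to 178894 in number 1, with Apoa1 near 0 throughout. That of the cholangiocyte markers was 49624 to 54116, 69742 to 76849 and 51669 to 60371 in the same order, with Epcam near 0. A few genes dominate these sums. Krt8 and Krt18 averaged 65277 and 51486 of a mean hepatocyte sum of 156452, and Spp1 41127 of a mean cholangiocyte sum of 59506. The mitochondrial share of signal was 2.92%, 3.16% and 2.92% in numbers 3, 2 and 1. Its library ranges overlapped, at 2.65% to 3.16%, 2.82% to 3.39% and 2.48% to 3.44% in the same order. The part these play in the stress genes was not tested.

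**Figure D3:**
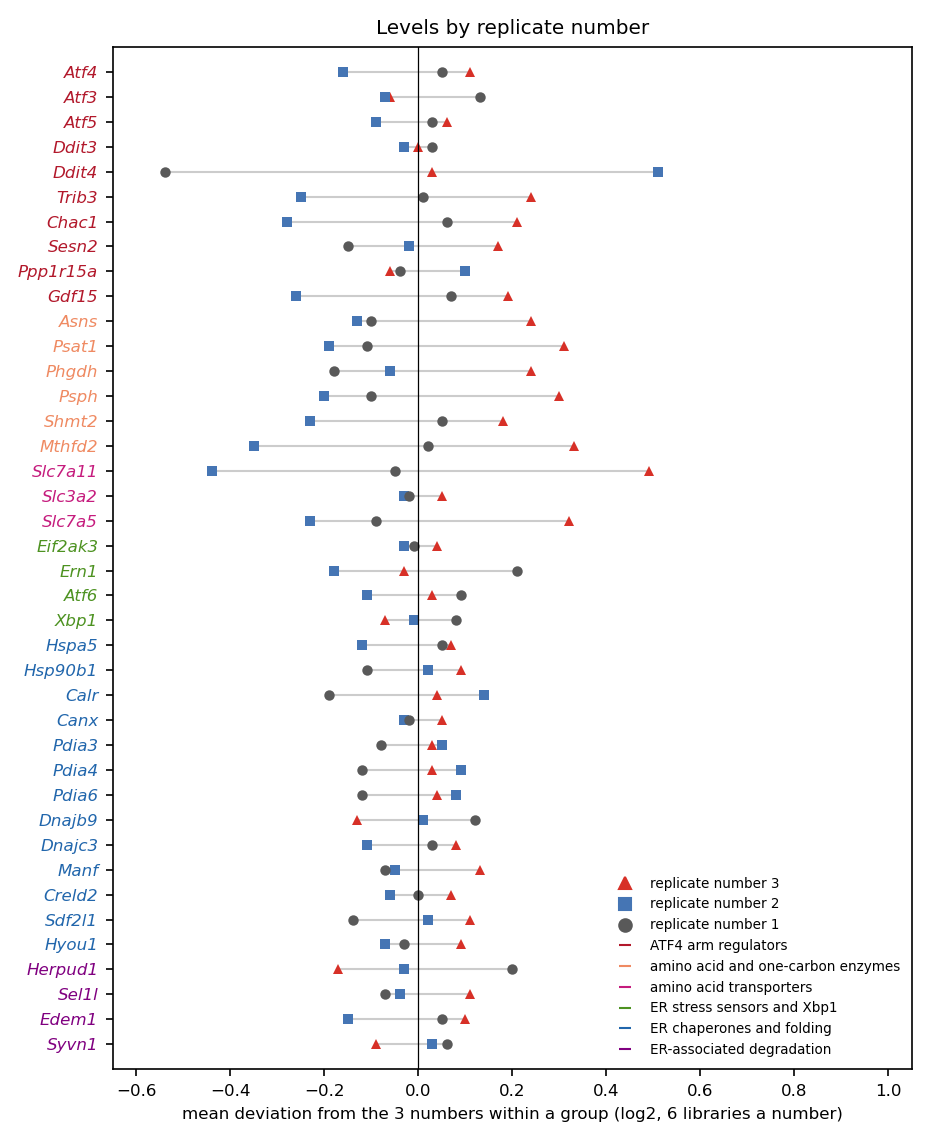
Mean deviation of each stress gene from the mean of the 3 replicate numbers within a group, on the log2 scale, over the 6 libraries of each number; gene names are coloured by role. The red triangles of number 3 lie farthest to the right in all 9 enzyme and transporter genes, and Ddit4 has the widest spread, 1.04.

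The amino acid genes shared 1 direction. All 6 enzymes and all 3 transporters were higher in number 3 than in number 1 and than in number 2, and each of these 18 differences passed in the fit over 18 libraries. Their medians were 0.37 for enzymes and 0.41 for transporters in number 3 against 1, beside 0.001 over all genes, and 0.45 and 0.54 in number 3 against 2, beside -0.005. Number 3 stayed highest in 9 of 9 under both rescalings of the libraries. Slc7a11, which imports cystine for glutathione synthesis, had the widest range, with lowest, median and highest signal of 687, 863 and 931 in number 3, 378, 431 and 510.3 in number 2 and 491, 583 and 640.4 in number 1. Numbers 3 and 2 did not overlap, and the log2 difference of number 3 minus 2 was 0.94 ± 0.08 (limma adjusted p = 3.0e-07, higher in 6 of 6 groups). Slc7a5, which imports leucine and other large amino acids, had 4265, 4390.3 and 4571 in number 3, 2822, 2976 and 3294 in number 2 and 3185, 3344 and 3441 in number 1. Its number 3 libraries stood clear of all others, at 0.41 ± 0.03 above number 1 (adjusted p = 7.2e-08) and 0.54 ± 0.03 above number 2 (adjusted p = 7.8e-09). Slc3a2, the chain that both transporters pair with, differed by only 0.07 ± 0.03 and 0.08 ± 0.03 (adjusted p = 0.0375 and 0.0226), and its libraries overlapped.

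The serine synthesis enzymes were also highest in number 3. Psat1 had lowest, median and highest signal of 18668, 20470.4 and 21410.0 in number 3, 12558, 14306 and 15830.0 in number 2 and 13502, 15141 and 16348 in number 1. Number 3 did not overlap the others, at 0.42 ± 0.03 above number 1 (limma adjusted p = 7.9e-08). Phgdh had 12550.3, 13139.9 and 15339 in number 3, 10677, 11003 and 11320.1 in number 2 and 9382, 10226 and 10768 in number 1, and was 0.42 ± 0.04 higher in number 3 than in number 1 (limma adjusted p = 6.2e-07), with no overlap. Asns had 4571, 5132 and 5382 in number 3, 3293, 4066 and 4242 in number 2 and 3738, 3895 and 4289 in number 1, again with number 3 clear of the others, at 0.34 ± 0.04 above number 1 (adjusted p = 5.9e-06). Psph was 0.40 ± 0.07 higher in number 3 than in number 1 (limma adjusted p = 2.7e-04). In T0 to T24 libraries alone Psph missed the threshold, at 0.22 with an adjusted p of 0.059. Mthfd2 had 2497, 2761 and 2863 in number 3, 1509, 1684 and 2055 in number 2 and 2089, 2151 and 2365 in number 1, and no 2 numbers overlapped. Its difference of number 3 minus 2, 0.68 ± 0.05 (limma adjusted p = 2.0e-07), stands beside its pemafibrate effect of -0.10.

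**Figure D4:**
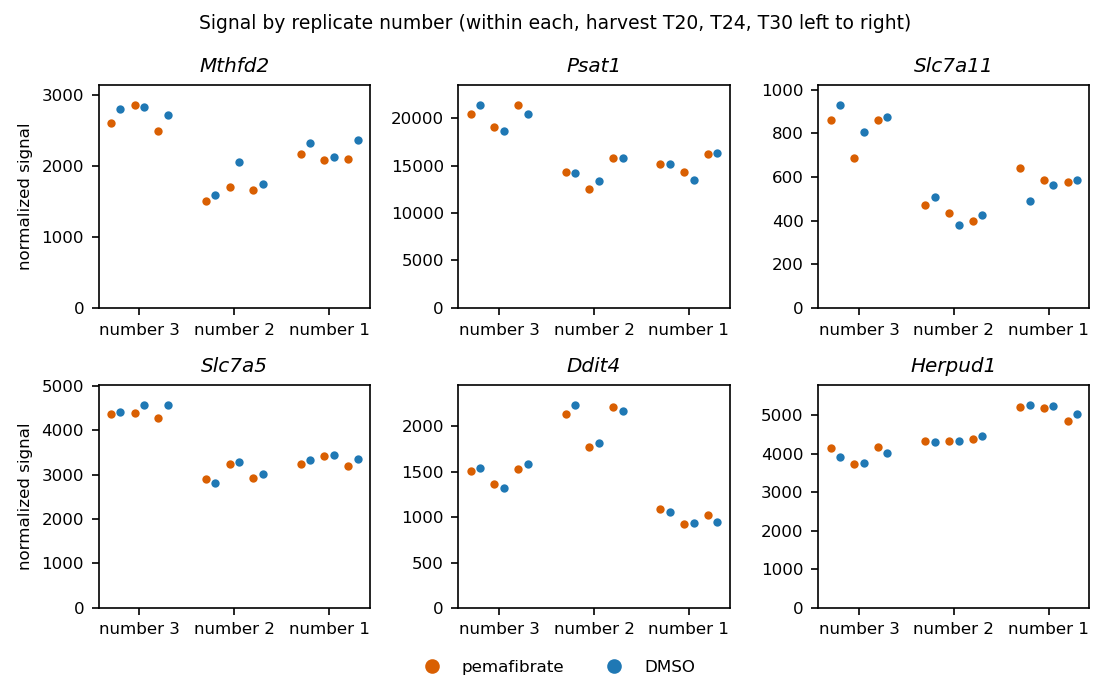
Normalized signal of 6 stress genes in each of the 18 libraries, grouped by replicate number 3, 2 and 1, and within a number by harvest at T20, T24 and T30, with pemafibrate left of DMSO. Within a number the 6 libraries lie close together, so Ddit4 is highest in all 6 libraries of number 2 and Herpud1 in all 6 of number 1.

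Regulators of the ATF4 arm were split. Atf4 was 0.27 ± 0.04 higher in number 3 than in number 2 (limma adjusted p = 4.1e-05) and did not differ past the threshold between numbers 3 and 1 (0.06 ± 0.04, adjusted p = 0.164). Trib3, Chac1 and Gdf15 had the same order as Atf4, at 0.50 ± 0.05, 0.49 ± 0.05 and 0.44 ± 0.05 in number 3 minus 2 (adjusted p = 9.0e-07, 3.5e-06 and 8.1e-06). Trib3 signal was 671, 699.9 and 798 in number 3, 474, 512 and 547 in number 2 and 575, 611 and 658 in number 1, and no 2 numbers overlapped. Ddit4, which encodes the mTORC1 inhibitor REDD1, had an order of its own, with lowest, median and highest signal of 1318, 1525 and 1587 in number 3, 1776, 2154 and 2238 in number 2 and 928, 989 and 1091 in number 1. Number 2 was highest and number 1 lowest in all 6 groups, with log2 differences of 1.04 ± 0.04 for number 2 minus 1 (limma adjusted p = 1.5e-10) and 0.57 ± 0.04 for number 3 minus 1 (adjusted p = 4.0e-08). Ddit3, by contrast, passed in none of the 3 contrasts (differences of -0.06 in number 2 minus 1, -0.04 in 3 minus 1 and 0.03 in 3 minus 2, the smallest adjusted p being 0.321), and Atf3 passed in none either.

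The ER genes followed other orders. Of the sensor genes and Xbp1, 3 of 4 were highest in number 1 (Ern1, Atf6 and Xbp1), beside 34.4% of all genes. Ern1 had 1454, 1586 and 1639 in number 3, 1262, 1401 and 1614 in number 2 and 1680.5, 1846 and 2002 in number 1, with log2 differences of -0.39 ± 0.03 in number 2 minus 1 and -0.24 ± 0.03 in number 3 minus 1 (limma adjusted p = 5.4e-07 and 4.2e-05). Of the 13 chaperones and folding factors, 7 were lowest in number 1 (34.2% of all genes), and 8 were higher and 1 lower in number 3 than in number 1 (26.7% and 24.8% of all genes). Calr, a lectin chaperone that binds calcium, had 27678, 31402 and 33046 in number 3, 29228, 31877 and 38129.9 in number 2 and 23846, 25889.5 and 28091 in number 1, and was 0.33 ± 0.03 higher in number 2 than in number 1 (adjusted p = 7.8e-07). The isomerases Pdia4 and Pdia6 were 0.21 ± 0.02 and 0.21 ± 0.04 higher in number 2 than in number 1 (limma adjusted p = 8.3e-06 and 3.8e-04). Hspa5 did not differ past the threshold between numbers 3 and 1 (0.02 ± 0.06, adjusted p = 0.846), and stood at -0.17 ± 0.06 in number 2 minus 1 (adjusted p = 0.0286), a call that was lost with its sign turned in T0 to T24 libraries alone (0.10, adjusted p = 0.092). Herpud1, an ER membrane protein of the degradation machinery, was lowest in number 3, where the amino acid genes were highest. It had 3739, 3967 and 4179 in number 3, 4306, 4342 and 4464 in number 2 and 4858, 5216 and 5275 in number 1. No 2 numbers overlapped, and the log2 difference of number 3 minus 1 was -0.38 ± 0.03 (limma adjusted p = 5.4e-07). Libraries of numbers 3 and 2 did not overlap in 15 of 40 genes (20.4% of all genes), those of 3 and 1 in 11 of 40 (20.7%) and those of 2 and 1 in 9 of 40 (15.7%).

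Among the neighbouring lists, the cytosolic aminoacyl-tRNA synthetases, many of them known ATF4 targets, had the largest share of higher genes among the 8 lists in number 3. Over all genes, 26.7% were higher and 24.8% lower in number 3 than in number 1, and 22.5% higher and 21.5% lower than in number 2. In number 3, 15 of 19 were higher and 0 lower than in number 1, with a median of 0.18, and 15 of 19 were higher and 0 lower than in number 2, with a median of 0.24. Eprs1 was 0.26 ± 0.02 higher in number 3 than in number 1 (limma adjusted p = 5.8e-07). ER folding and import genes had 17 of 30 higher and 6 lower in number 3 than in number 1, further ATF4 pathway genes 10 of 24 higher and 5 lower, and eIF2α kinase and phosphatase genes 4 of 9 higher and 1 lower. Degradation genes had 6 of 14 higher and 3 lower, sensors and ER-anchored factors 4 of 9 higher and 3 lower, mitochondrial folding genes 5 of 10 higher and 0 lower, and cytosolic heat shock genes 6 of 12 higher and 4 lower, and none of these is read as particular to its list. Cbs, the first enzyme of transsulphuration, stood at -0.92 ± 0.16 in number 3 minus 1 (adjusted p = 2.1e-04), and the inducible heat shock gene Hspa1a at -0.71 ± 0.12 (adjusted p = 2.7e-04); Hspa1a and Hspa1b are near-identical copies whose reads may be split between them.

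Harvest times were set side by side without a test, since each time is a table of its own. The length of exposure differs along with the time, 24 h at T24 and 6 h at T20 and T30, and the 2 cannot be told apart. In both treatments more stress genes were lower than higher at T24 when set against T20, and more were higher than lower at T30 when set against T24. Pemafibrate cells had 22 of 40 genes lower at T24 than at T20 in all 3 same-numbered comparisons and 3 higher, against 25.1% and 15.8% of all genes. At T30, 20 of 40 were higher than at T24 and 7 lower, against 26.9% and 13.6%. Between T30 and T20, 10 were higher and 6 lower, against 17.9% and 12.2%. The comparisons share libraries of one time or another, so they are not independent.

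DMSO cells had 15 of 40 genes lower at T24 than at T20 in all 3 numbers and 3 higher, against 23.2% and 14.3% of all genes. At T30, 22 of 40 were higher than at T24 and 3 lower, against 27.5% and 16.3%. That count depends on scaling: with the 18 libraries rescaled together to equal upper quartiles, 14 of 40 were higher and 7 lower, against 17.9% and 23.7% of all genes. Between T30 and T20, 10 were higher and 8 lower, against 21% and 15.9%. With all 6 same-numbered differences of both treatments required, 15 of 40 were lower at T24 than at T20 (12.9% of all genes) and 18 higher at T30 than at T24 (15.6%). The 15 were Atf5, Ddit3, Ddit4, Asns, Psat1, Psph, Eif2ak3, Xbp1, Calr, Pdia4, Dnajc3, Creld2, Sdf2l1, Hyou1 and Sel1l. Of the 18, Hspa5, Hsp90b1, Calr, Pdia4, Pdia6, Dnajc3, Manf, Creld2, Sdf2l1 and Hyou1 were chaperones or folding factors. Slc3a2, Shmt2 and Ern1 went the other way, lower at T30 than at T24 in all 6 (6.8% of all genes), and Slc3a2 and Slc7a5 were higher at T24 than at T20 in all 6 (6.4%). Against T20, Atf4, Hsp90b1, Calr, Pdia3, Pdia4 and Pdia6 were higher at T30 in all 6 (6.47%), and Phgdh, Xbp1 and Syvn1 lower (4.19%).

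ER chaperones were mostly higher at T30 than at T24. At T24 minus T20, 10 of 13 were lower in all 3 numbers in pemafibrate cells (median -0.18) and 6 of 13 in DMSO cells (median -0.11). Among all genes 25.1% and 23.2% were lower. At T30 minus T20, 8 of 13 were higher and 2 lower in pemafibrate cells (median 0.08), beside 17.9% and 12.2% of all genes. In DMSO cells 6 were higher and 0 lower there (median 0.04), beside 21% and 15.9%. In pemafibrate cells 11 of 13 were higher at T30 than at T24 in all 3 numbers, with a median log2 difference of 0.21, beside 26.9% of all genes higher and a median of 0.038. In DMSO cells 11 of 13 were higher as well, with a median of 0.20, beside 27.5% and 0.040. With the 18 libraries rescaled together to equal upper quartiles, 10 of 13 were higher and 0 lower in either treatment, with medians of 0.18 in pemafibrate cells and 0.15 in DMSO cells, beside 19.7% and 17.9% of all genes higher. Creld2, a secreted folding factor, had signal of 1220.2, 931 and 1044 at T20, 940.1, 847 and 842 at T24 and 1156, 1048 and 1174 at T30 in pemafibrate cells. It had 1162, 1056 and 1107 at T20, 943, 929 and 870.0 at T24 and 1010.2, 1056 and 1114 at T30 in DMSO cells. The T24 values were the lowest of the 3 times for every number under either treatment. The mean log2 difference of T30 minus T24 was 0.36 ± 0.10 (SD, n = 3) in pemafibrate cells and 0.21 ± 0.13 in DMSO cells. Calr had 31588, 32519 and 25989 at T20, 27702, 29228 and 23846 at T24 and 33046, 38129.9 and 28091 at T30 in pemafibrate cells. It had 31389.7, 31236 and 25790.0 at T20, 27678, 30796 and 24209 at T24 and 31414, 34166 and 27886 at T30 in DMSO cells. Here number 1 was lowest at each time, and T30 exceeded T24 in every number, by 0.29 ± 0.08 in pemafibrate cells and 0.18 ± 0.03 in DMSO cells. Hspa5 rested on 1 number: its T30 minus T24 difference in DMSO cells was 0.52 in number 1, 0.02 in number 2 and 0.07 in number 3.

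**Figure D5:**
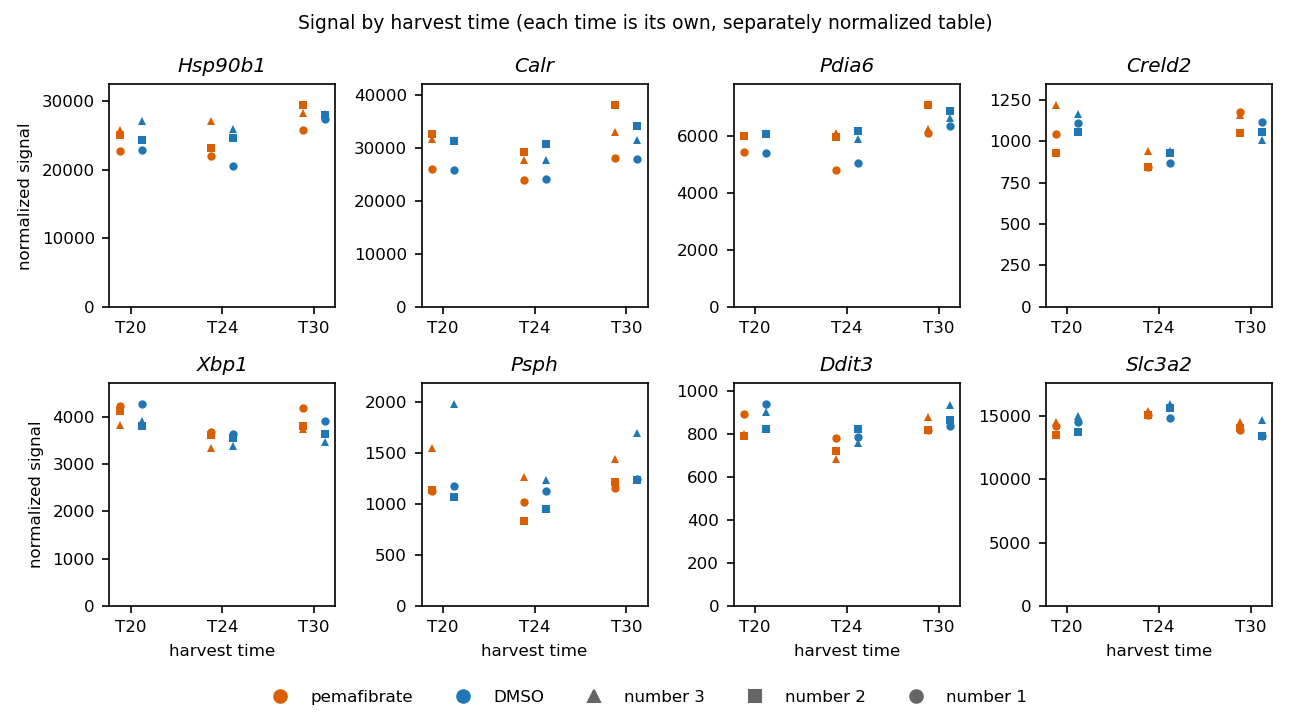
Normalized signal of 8 stress genes at harvest T20, T24 and T30, pemafibrate left of DMSO, 1 point per library with shape for the replicate number; each time is a separately normalized table. Hsp90b1, Calr, Pdia6, Creld2, Xbp1, Psph and Ddit3 were higher at T30 than at T24 in each same-numbered comparison, and Slc3a2 was lower. The 8 genes shown all had 1 uniform direction there, as 18 (higher) and 3 (lower) of the 40 stress genes did.

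By median, the other roles differed less than the chaperones at T30 minus T24 or went the other way. Enzymes had medians of 0.07 in pemafibrate cells and 0.10 in DMSO cells, and transporters -0.10 and -0.05. Single genes of these roles could differ as much: in DMSO cells Psph, at 0.33, exceeded the highest chaperone, at 0.26. Psph had 1547, 1132 and 1129 at T20, 1266, 828 and 1019 at T24 and 1442, 1216 and 1154 at T30 in pemafibrate cells. It had 1982, 1070.4 and 1179 at T20, 1231, 949 and 1122 at T24 and 1695, 1238 and 1249 at T30 in DMSO cells. Its T30 minus T24 difference, 0.31 ± 0.21 (SD, n = 3) in pemafibrate cells and 0.33 ± 0.16 in DMSO cells, was larger than that of any other enzyme, and number 3 was highest throughout. Xbp1 was higher at T30 than at T24 by 0.14 ± 0.06 in pemafibrate cells and 0.06 ± 0.04 in DMSO cells, and Ddit3 by 0.21 ± 0.15 and 0.15 ± 0.13 in the same order. Slc3a2 had 14564, 13516 and 14214 at T20, 15419, 15088 and 15096 at T24 and 14514, 14017 and 13868 at T30 in pemafibrate cells. It had 15029, 13743 and 14530.2 at T20, 15972, 15635 and 14804 at T24 and 14695, 13391 and 13406 at T30 in DMSO cells. It was highest at T24 in all 3 numbers of either treatment, with T30 minus T24 differences of -0.11 ± 0.02 in pemafibrate cells and -0.16 ± 0.05 in DMSO cells.

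Genes whose promoter held the ER stress response element shown above can be set beside the others at T30 minus T24. All counts by element are under the deposited scaling and were not repeated after rescaling. In pemafibrate cells 7 of 8 genes with the element were higher in all 3 numbers, with a median of 0.21, against 11 of 28 genes without it, with a median of 0.06. In DMSO cells 6 of 8 were higher with a median of 0.21, against 14 of 28 with a median of 0.07. Among all genes 26.9% were higher in pemafibrate cells and 27.5% in DMSO cells. At T24 minus T20 the 2 sets were closer. In pemafibrate cells 5 of 8 genes with the element were lower (median -0.12), against 15 of 28 without it (median -0.11). In DMSO cells 3 of 8 were lower (median -0.09), against 11 of 28 (median -0.06). Among all genes 25.1% were lower in pemafibrate cells and 23.2% in DMSO cells. At T30 minus T20 in pemafibrate cells, 4 of 8 were higher and 2 lower (median 0.08), against 5 and 3 of 28 (median -0.01). In DMSO cells 4 of 8 were higher and 1 lower (median 0.06), against 4 and 7 of 28 (median -0.01). Among all genes 17.9% were higher and 12.2% lower in pemafibrate cells, and 21% and 15.9% in DMSO cells. At T30 minus T24 Syvn1, which carries the element, was not among those higher, at -0.04 ± 0.15 in pemafibrate cells and -0.12 ± 0.23 in DMSO cells. Sdf2l1 and Pdia4 were higher with no element in the window. The split follows the chaperone role closely, so element and role cannot be told apart here.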

How the data were processed

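Libraries were made from AML12 total RNA by poly(A) selection with the dUTP strand-marking method, per the labels' protocols. The authors deposited 1 table of normalized signal per exposure window, per the file headers, each with 35551 Ensembl gene IDs and 6 libraries. No aligner, counter, annotation or genome build is given in the sources used here; read depth before normalization is unknown. Of the IDs, 35181 had a symbol in the gene name table. Ddit3 has 2 IDs, and the one with signal was used. The pseudogenes Calr-ps and Phgdh-ps1 averaged 0.44 and 0.06.

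A gene entered a fit if its mean signal there reached 10, and was analysed as log2(signal + 1), which understates changes of low genes, with limma 3.58.1 in R 4.3.3 (eBayes with a variance trend), Benjamini-Hochberg adjustment over all genes and a threshold of 0.05. Pemafibrate fits carried the replicate number as a block. Across genes, the deviations of same-numbered pemafibrate and DMSO libraries from their group means had correlations of 0.308 to 0.622. Those of other pairs were -0.425 to -0.115, but deviations within a group of 3 sum to 0, which pulls these values below 0. The pairing thus comes from the titles' numbers together with the same-number correlations. Scripts were tested on simulated data. By rule, all 40 genes may be named, and library values are given for the 4 of smallest p in each pemafibrate contrast, the 3 of smallest p in each difference, the 8 of largest difference between numbers 3 and 1, Atf4, Ddit3, Xbp1, Atf6 and Hspa5, with up to 4 genes named per neighbouring list. Library values of Creld2 and Slc3a2 are outside this rule and were chosen after their values were seen. The members and lists were chosen with earlier results of these data known.

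Alternatives changed the pseudocount, filter, scaling, variance model, block or libraries used. Rescaling of all 18 libraries together was chosen after seeing the data.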

Additional observations from a re-analysis of the deposited data

How the results depend on the processing

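The count of stress genes called for pemafibrate, 0 of 40, stayed at 0 for each window, for the common effect and for each difference between windows under all alternatives tried, including the fits without the replicate block and those without replicate 3, 2 or 1. The smallest adjusted p of any stress gene over these alternatives was 0.343, in T24 to T30. The count over all genes moved more: without the block the pairing is ignored, and calls over all genes were 0 in T0 to T24, 0 in T14 to T20 and 0 in T24 to T30, against 7, 5 and 5 with it, and 2 against 25 in the common fit. Over all alternatives they ran from 0 to 12, 0 to 8, 0 to 7 and 2 to 26. For replicate numbers, using fewer libraries gave fewer calls. Number 2 minus 1 called 13 of 40 in T0 to T24 libraries alone (23.3% of all genes), 18 in T14 to T20 alone (31.9%) and 15 in T24 to T30 alone (24.7%). It called 13 in either pemafibrate (23.7%) or DMSO libraries alone (18.3%). Number 3 minus 1 called 22 (38.2%), 21 (39.1%) and 19 (20.1%) in these windows alone, in the same order. It called 20 in pemafibrate (30.1%) and 16 in DMSO libraries alone (25.4%). Number 3 minus 2 called 20 (21.4%), 24 (31.7%) and 21 (26.4%) in the windows alone. It called 17 in pemafibrate (25.1%) and 17 in DMSO libraries alone (20.5%). With at least a 2-fold difference required, the counts were 1, 0 and 0 for 2 minus 1, 3 minus 1 and 3 minus 2 (1.49%, 2.4% and 1.37%). All libraries were also rescaled together to equal upper quartiles. DMSO cells then had 5 of 40 higher (22.7% of all genes) and 13 lower (14%) at T24 than at T20 in all 3 numbers. At T30 against T24 they had 14 higher (17.9%) and 7 lower (23.7%). The cause was not tested. The sign of a stress gene's fitted value differed from the reported one in 177 of 3520 refitted pemafibrate values, none of them called, and in 48 of 1560 replicate-number values, of which 3 belonged to called differences: Hspa5 in 2 minus 1 (0.10 in T0 to T24 libraries alone), and Syvn1 (0.01) and Pdia3 (-0.01) in 3 minus 1 in T24 to T30 libraries alone, none past the threshold there. With the read depth unknown, no depth limit can be given.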
